A study of Rattus norvegicus with 6 samples.

Results

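The presynaptic vesicle and release machinery was described here through 37 genes: the proteins of the synaptic vesicle, the glutamate transporters that fill it, the SNARE proteins that fuse it, the scaffolds of the active zone where it docks, the neurexins, and the proteins that take its membrane back. The 37 genes were listed by name and role and not by any measured value, though with earlier results of these data known. Each was represented by the probe set (a group of short probes for 1 transcript) with the highest mean over all 6 arrays among those with a single gene symbol, and all 37 had one, out of 14217 genes with such a probe set and 31042 probe sets in all. The cells were rat retinal ganglion cell neurons (RGCs), the output neurons of the retina, taken at postnatal day 6 and cultured for 12 days. Gpc4 cultures received glypican 4 protein for 12 hours (2 arrays), TSP1 cultures received thrombospondin 1 protein for 12 hours (2 arrays), and untreated cultures (Alone) received no protein (2 arrays). All 3 groups, the untreated one included, were grown without glia in medium with BDNF and CNTF, and the methods add forskolin to that medium and FUDR, which keeps fibroblasts from dividing. The Gpc4 was a His-tagged protein purified from the medium of transfected HEK293 cells, a human embryonic kidney line, the TSP1 was a commercial recombinant mouse protein, and no culture received another protein made the same way. Each array held RNA from a pair of pooled wells, and per the methods the 2 arrays of a group came from separate cultures of pups of both sexes. The study asked which mRNAs change when neurons receive an astrocyte protein that brings about active synapses (Gpc4) or silent ones (TSP1).

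At a presynaptic terminal, synaptic vesicles are filled with transmitter, docked and primed at the active zone, fused with the plasma membrane when calcium enters, and rebuilt by endocytosis. The SNARE proteins of the vesicle and of the plasma membrane drive fusion, synaptotagmins sense the calcium, and scaffolds such as bassoon and RIM hold vesicles near calcium channels. RGCs release glutamate, which they load into vesicles with the transporter VGLUT2.

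None of the 37 genes passed the test in any comparison. With Gpc4 against untreated cultures 0 of 37 had an adjusted p under 0.05 by limma, as did 26 of all 31042 probe sets (0.0838%), and 0 of 37 and 64 probe sets (0.206%) did in a fit that blocks on replicate number. With TSP1 against untreated cultures the counts were 0 of 37 and 0 probe sets (0%), or 0 of 37 and 4 probe sets (0.0129%) with the block. With Gpc4 against TSP1 they were 0 of 37 and 19 probe sets (0.0612%), or 0 of 37 and 80 (0.258%) with the block. At an unadjusted p under 0.05 by limma, 1 of 37 genes stood out with Gpc4 against untreated cultures (2.7%, Ppfia4) where 6.88% of all probe sets did, 2 of 37 with TSP1 against untreated cultures (5.41%, Syt1 and Ppfia2) where 4.40% did, and 0 of 37 in the direct comparison where 4.51% did. By the methods' t-test at an unadjusted threshold it was 3 of 37 with Gpc4 (8.11%, Snap25, Pclo and Ppfia2, all probe sets 5.49%), 0 of 37 with TSP1 (all probe sets 4.12%) and 1 of 37 between the proteins (2.7%, Slc17a7, all probe sets 4.62%), and after Benjamini-Hochberg adjustment 0 in each comparison. A single gene is 2.7% of the 37, and nothing is read from these shares. An RMA value from a whole culture is a share of its RNA, so fewer cells of a type and less RNA per cell cannot be told apart.

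The fits also bound how large a difference could be. With Gpc4 the log2 differences from untreated cultures ran from -0.29 to 0.29 over the 37 genes, with a median of -0.025 (all probe sets: -0.005), 12 above 0, 24 below and 1 at 0. With TSP1 they ran from -0.21 to 0.38, with a median of -0.03 (all probe sets: -0.005), 15 above 0, 21 below and 1 at 0. Over all 31042 probe sets, 14893 lay above 0 and 15640 below with Gpc4, and 14799 above and 15694 below with TSP1. The 95% confidence interval of the difference, taken for each gene alone, lay within 1.5-fold in either direction for 37 of 37 genes with Gpc4 and for 36 of 37 with TSP1, the exception being Syt1. Over all probe sets this held for 93.0% with Gpc4 and 94.3% with TSP1. The widest upper bound with Gpc4 was 1.5-fold (Syt1) and the lowest lower bound 0.673-fold (Ppfia4). With TSP1 they were 1.60-fold (Syt1) and 0.712-fold (Ppfia4). The median half-width of these intervals was 0.23 on the log2 scale, and differences larger than that, such as Syt1 with TSP1 (0.38), still did not pass the adjusted test with this number of arrays.

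**Figure D1:**
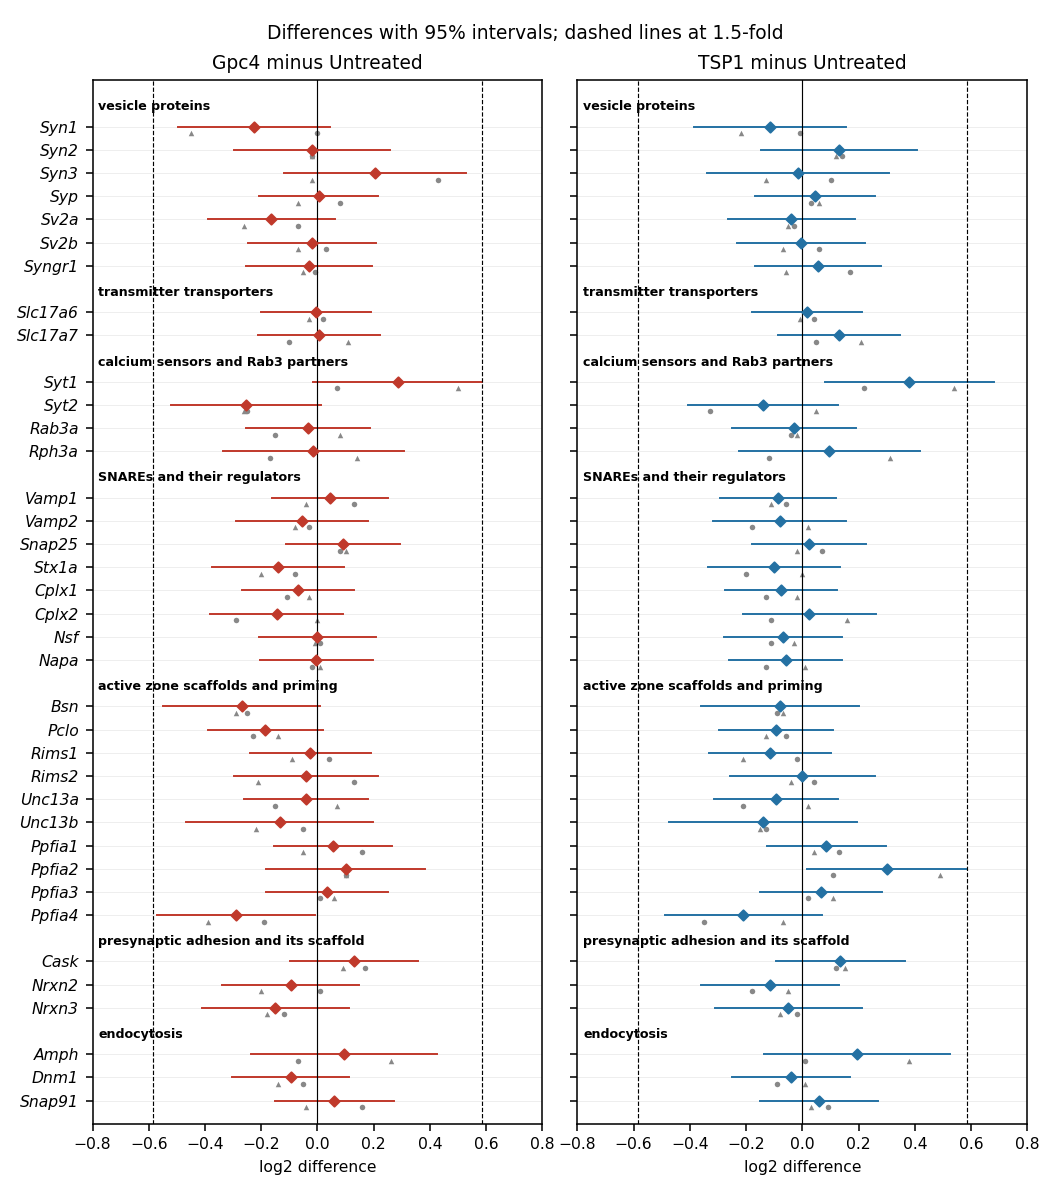
Log2 difference with Gpc4 (left) and TSP1 (right) from untreated cultures for the 37 genes by role. Diamonds are the limma estimates, lines their 95% confidence intervals, grey circles and triangles the differences within replicate 1 and replicate 2, and dashed lines mark 1.5-fold. The diamonds lie between -0.29 and 0.29 with Gpc4 and between -0.21 and 0.38 with TSP1.

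The signal of the chosen probe sets set a limit on what could be seen. The array medians over all probe sets lay between 5.96 and 5.99 on the log2 scale. Of the 37 genes, 25 stood above the median of every array, 11 stood below it on every array (Syn3, Syngr1, Slc17a7, Syt1, Syt2, Rph3a, Pclo, Rims1, Unc13a, Unc13b and Ppfia2) and Rims2 stood around it. No detection calls came with the values, so whether signals under the medians exceed background is unknown, and a difference there can understate the change in mRNA. The interval counts of those 11 genes are therefore weaker statements than those of the 25. Over the 25 brighter genes, the log2 difference from untreated cultures ran from -0.29 to 0.13 with Gpc4 and from -0.21 to 0.20 with TSP1, and all 25 intervals lay within 1.5-fold in both comparisons. Binding differs from one probe set to the next, so the levels do not rank the genes.

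**Figure D2:**
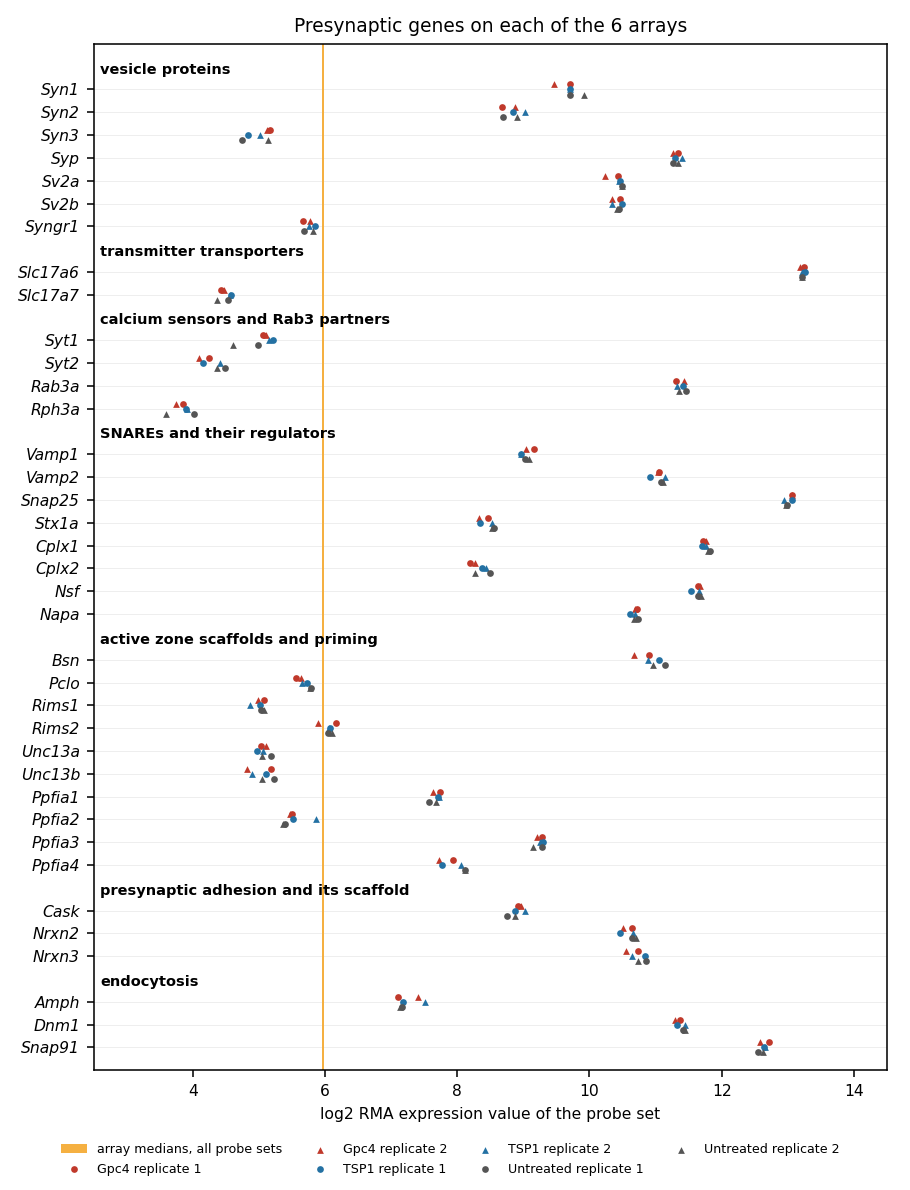
Log2 RMA value of each of the 37 genes on each array, by role. Red is Gpc4, blue TSP1 and grey untreated, circles are replicate 1 and triangles replicate 2, and the orange band marks the array medians over all probe sets (5.96 to 5.99). For most genes the 6 points lie close together, and the 3 colours overlap.

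The labelled cell type was checked on the same arrays. All 10 measured RGC markers stood above the array medians in untreated cultures (means from 7.91 for the transcription factor Pou4f1 to 14 for Sncg), with median log2 differences of -0.04 with Gpc4 and 0.01 with TSP1. All 5 measured photoreceptor markers stood below the medians of all arrays, as did 5 of 9 astrocyte and Müller glia markers, 4 of 7 microglia markers, 3 of 8 amacrine cell markers and 2 of 8 fibroblast and pericyte markers. So did 4 of 5 endothelial, 4 of 6 oligodendrocyte lineage and 2 of 3 bipolar cell markers. Markers of other cells did stand above the medians, among them Vim (11.1) and Glul (9.89) of the glial list, Calb2 of the amacrine list, which RGCs also express (10.9), and Acta2 of the fibroblast list (8.19). Of 61 markers of 9 cell types, 0 passed with Gpc4 or TSP1 against untreated cultures, with or without the replicate block. In the direct comparison 0 passed, and 3 did with the block: the fibroblast genes Lum (higher with Gpc4 than with TSP1 by 1.95, adjusted p = 0.0086 from limma) and Dcn (1.77, 0.026) and the endothelial gene Kdr (1.13, 0.017). In that comparison the other fibroblast markers lay between -0.27 (Pdgfrb) and 0.06 (Col1a1). The other endothelial markers lay between -0.02 (Cldn5) and 0.12 (Tek). Against untreated cultures TSP1 gave -1.64 for Lum, -1.49 for Dcn and -1.35 for Pdgfra of the oligodendrocyte list, none of which passed. The other fibroblast markers lay between -0.37 (Col3a1) and 0.06 (Rgs5) there, and the other oligodendrocyte markers between -0.10 (Olig2) and 0.21 (Sox10). The summed linear level of the 8 fibroblast markers was 708 and 981 with Gpc4, 610 and 792 with TSP1, and 667 and 1115 in untreated cultures. The part of these cells in the differences of the 37 genes was not tested.

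What the genes share in sequence was read from the RefSeq promoter windows of assembly GRCr8, 250 bases before to 50 after each gene's start. Windows were found for 29 of the 37 genes (30 windows). Their median GC content was 65.7%, against 51.7% over all 33469 windows. The GC box GGGCGG was present on either strand in 22 of 30 windows (73.3%, all windows 33.1%), and TATAAA in 0 of 30 (all windows 14.2%). The cAMP response element (CRE) TGACGTCA, which reads the same on both strands and which the factor CREB binds, was present in 3 of 30 (10%, all windows 1.83%). The windows compared were not matched for GC content, so nothing is read from these shares. The 3 windows with a CRE are shown because forskolin, which raises cAMP, was in the medium of all 3 groups. The CRE is in capitals, all bases lie before the gene start, and each runs on the plus strand.
Syn1 (chrX:3725540-3725577, CRE from 190 to 183 bases before the start): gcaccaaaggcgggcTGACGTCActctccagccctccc
Vamp1 (chr4:159698808-159698845, CRE from 71 to 64 bases before the start): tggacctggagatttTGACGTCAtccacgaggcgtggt
Napa (chr1:85915361-85915398, CRE from 59 to 52 bases before the start): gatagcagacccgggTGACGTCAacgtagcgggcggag
These are matches of letters in a window, and no binding was measured.

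Among the vesicle proteins, the synapsins tether vesicles to each other and to actin in the reserve pool. Syn1 had log2 values of 9.71 and 9.47 with Gpc4, 9.70 and 9.70 with TSP1, and 9.71 and 9.92 in untreated cultures. The Gpc4 and untreated arrays overlapped, since both first arrays read 9.71 and the lower mean with Gpc4 came from the second culture. The difference was -0.23 with Gpc4 (standard error 0.12, 95% interval -0.49 to 0.04, adjusted p = 0.76 from limma) and -0.12 with TSP1 (adjusted p = 0.98). Its other probe set, also above the medians, gave -0.21 and -0.13. Syn2 had 8.68 and 8.88 with Gpc4, 8.84 and 9.02 with TSP1, and 8.70 and 8.90 in untreated cultures, so it differed more between cultures than between groups (-0.02 with Gpc4, 0.13 with TSP1). Its 3 probe sets did not run together with Gpc4: one read 7.18 and 6.97 with Gpc4 against 7.42 and 7.41 in untreated cultures (-0.34), and the other 7.31 and 7.27 against 7.21 and 6.99 (0.19), and neither passed. Syn3 had 5.17 and 5.12 with Gpc4, 4.84 and 5.01 with TSP1, and 4.74 and 5.14 in untreated cultures, all below the array medians. Its difference of 0.21 with Gpc4 (95% interval -0.12 to 0.53) rests on the untreated array of the first culture.

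The membrane proteins of the vesicle were steadier. Syp (synaptophysin, an abundant vesicle protein that binds synaptobrevin) had 11.34 and 11.27 with Gpc4, 11.29 and 11.40 with TSP1, and 11.26 and 11.34 in untreated cultures. Its difference with Gpc4 was 0.01 (95% interval -0.21 to 0.22) and with TSP1 0.05 (-0.17 to 0.26). Sv2a, a vesicle glycoprotein and the binding site of the drug levetiracetam, read 10.43 and 10.23 with Gpc4, 10.47 and 10.44 with TSP1, and 10.50 and 10.49 in untreated cultures. Both Gpc4 arrays lay below both untreated ones, with a difference of -0.17 (95% interval -0.39 to 0.06, adjusted p = 0.79 from limma). Its paralog Sv2b and the synaptogyrin gene Syngr1 differed by -0.02 and -0.03 with Gpc4 and by -0.01 and 0.06 with TSP1. Other probe sets of Sv2b gave -0.07 and, for a dim one, -0.28 with Gpc4, and -0.025 and -0.33 with TSP1. A dim one of Syngr1 gave -0.195 with Gpc4 and -0.13 with TSP1, and none of these passed.

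The transporter gene of RGCs was the most even of all. Slc17a6, which encodes VGLUT2, read 13.24 and 13.19 with Gpc4, 13.26 and 13.21 with TSP1, and 13.22 and 13.22 in untreated cultures. Its residual SD over the 6 arrays, 0.03, was the lowest of the 37, and the differences were -0.01 with Gpc4 (95% interval -0.20 to 0.19) and 0.02 with TSP1 (-0.18 to 0.21). Slc17a7, which encodes VGLUT1, the transporter of many cortical and hippocampal neurons, lay between 4.36 and 4.58 on all arrays, under the medians. It differed by 0.01 with Gpc4 and 0.13 with TSP1. Its other probe set, dimmer still, gave 0.255 with Gpc4 and 0.14 with TSP1, and neither passed.

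Synaptotagmins 1 and 2 are the calcium sensors of fast release, and RAB3A with its effector rabphilin sits on the vesicle surface. Syt1 gave the largest positive difference with either protein: 5.06 and 5.11 with Gpc4, 5.21 and 5.15 with TSP1, and 4.99 and 4.61 in untreated cultures. All 4 treated arrays lay above both untreated ones, which themselves lay 0.38 apart. The difference was 0.29 with Gpc4 (95% interval -0.01 to 0.58, adjusted p = 0.74 from limma) and 0.38 with TSP1 (0.08 to 0.68, adjusted p = 0.98). Its probe set reads under every array median, and the gene has no other in the annotation. Syt2 had 4.24 and 4.10 with Gpc4, 4.16 and 4.41 with TSP1, and 4.49 and 4.36 in untreated cultures. Both Gpc4 arrays lay lower than both untreated ones (-0.26, 95% interval -0.52 to 0.01, adjusted p = 0.74 from limma), again under the medians. Rab3a read between 11.31 and 11.46 on all 6 arrays, with differences of -0.04 with Gpc4 and -0.03 with TSP1. Rph3a, the rabphilin gene, had 3.85 and 3.74 with Gpc4, 3.90 and 3.91 with TSP1, and 4.02 and 3.60 in untreated cultures, so its lowest and highest arrays were both untreated.

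Fusion is carried by the vesicle SNAREs VAMP1 and VAMP2 with SNAP25 and syntaxin 1A, complexins bind the assembled SNARE complex, and NSF with its adaptor alpha-SNAP (Napa) takes it apart afterwards. Snap25 read 13.07 and 13.07 with Gpc4, 13.06 and 12.95 with TSP1, and 12.99 and 12.97 in untreated cultures. The Gpc4 arrays lay above the untreated ones by 0.09 (95% interval -0.11 to 0.29, adjusted p = 0.88 from limma). Vamp1 had 9.16 and 9.04 with Gpc4, 8.97 and 8.97 with TSP1, and 9.03 and 9.08 in untreated cultures, and its difference of 0.13 between Gpc4 and TSP1 was among the 3 largest positive ones of that comparison (adjusted p = 0.995 from limma). Stx1a (syntaxin 1A) had 8.47 and 8.33 with Gpc4, 8.35 and 8.53 with TSP1, and 8.55 and 8.53 in untreated cultures. It differed by -0.14 with Gpc4 and -0.10 with TSP1, and its other probe set by -0.16 and -0.09, and none of these passed. Cplx2 had 8.20 and 8.27 with Gpc4, 8.38 and 8.43 with TSP1, and 8.49 and 8.27 in untreated cultures, where the Gpc4 arrays lay below the TSP1 arrays (-0.17, adjusted p = 0.995 from limma). Vamp2, Cplx1, Nsf and Napa differed by -0.06, -0.07, 0 and -0.01 with Gpc4 and by -0.08, -0.08, -0.07 and -0.06 with TSP1. Over the 8 genes the differences stayed between -0.15 and 0.09 with Gpc4 and between -0.10 and 0.03 with TSP1.

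The 10 active zone genes had a median difference of -0.04 with Gpc4, 3 above 0 and 7 below, and held Ppfia4 and Bsn, the lowest of the 37. The liprin-alpha genes Ppfia1 to Ppfia4 encode scaffolds that bind RIM and the intracellular part of LAR-type receptor phosphatases. Ppfia4 had 7.93 and 7.73 with Gpc4, 7.77 and 8.05 with TSP1, and 8.12 and 8.12 in untreated cultures. All 4 treated arrays lay below the untreated ones, which agreed to 2 decimals, while arrays of the same protein lay 0.20 and 0.28 apart. The difference was -0.29 with Gpc4 (standard error 0.12, 95% interval -0.57 to -0.01, adjusted p = 0.72 from limma) and -0.21 with TSP1 (-0.49 to 0.07, adjusted p = 0.98). In the blocked fit the adjusted p was 0.52 with Gpc4 and 0.79 with TSP1. Its other probe set gave -0.14 and -0.22.

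Bsn (bassoon, a giant scaffold that organises vesicles at the active zone) had 10.90 and 10.67 with Gpc4, 11.06 and 10.89 with TSP1, and 11.15 and 10.96 in untreated cultures. In both cultures the Gpc4 array was the lowest of the 3 and the untreated array the highest, as was also so for Pclo, Sv2a and Nrxn3. This order was not counted over all probe sets, so nothing is read from it. The Bsn differences from untreated were -0.25 and -0.29 with Gpc4 and -0.09 and -0.07 with TSP1. The replicate-2 array read lower than the replicate-1 array in every group. The fitted difference with Gpc4 was -0.27 (95% interval -0.55 to 0.01, adjusted p = 0.74 by limma and 0.41 in the blocked fit, there the smallest of the 37). Between Gpc4 and TSP1 it was -0.19 (adjusted p = 0.995 from limma, 0.78 with the block). Its other probe set lay under the medians and gave 0.04 with Gpc4. Pclo (piccolo, its structural relative) read 5.56 and 5.64 with Gpc4, 5.73 and 5.65 with TSP1, and 5.79 and 5.78 in untreated cultures, under the medians, with differences of -0.19 and -0.10. The other probe set of Pclo, dimmer still, gave 0.085 with Gpc4 and 0 with TSP1.

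Ppfia2 had 5.50 and 5.47 with Gpc4, 5.51 and 5.86 with TSP1, and 5.40 and 5.37 in untreated cultures. Its difference of 0.30 with TSP1 (95% interval 0.02 to 0.58, adjusted p = 0.98 from limma) came mainly from the second TSP1 array (0.11 in one culture and 0.49 in the other), and its level lies under the medians. Ppfia1 and Ppfia3 stood above them and differed by 0.06 and 0.04 with Gpc4 and by 0.09 and 0.07 with TSP1. Rims1 and Rims2 encode the RIM proteins that tie vesicles to calcium channels, and Unc13a and Unc13b the Munc13 proteins that prime vesicles for fusion. Rims1 had 5.07 and 4.99 with Gpc4, 5.01 and 4.87 with TSP1, and 5.03 and 5.08 in untreated cultures (-0.03 with Gpc4, -0.12 with TSP1). Unc13b had 5.18 and 4.82 with Gpc4, 5.10 and 4.89 with TSP1, and 5.23 and 5.04 in untreated cultures (-0.14 with each). Rims2 and Unc13a differed by -0.04 each with Gpc4 and by 0 and -0.10 with TSP1.

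**Figure D3:**
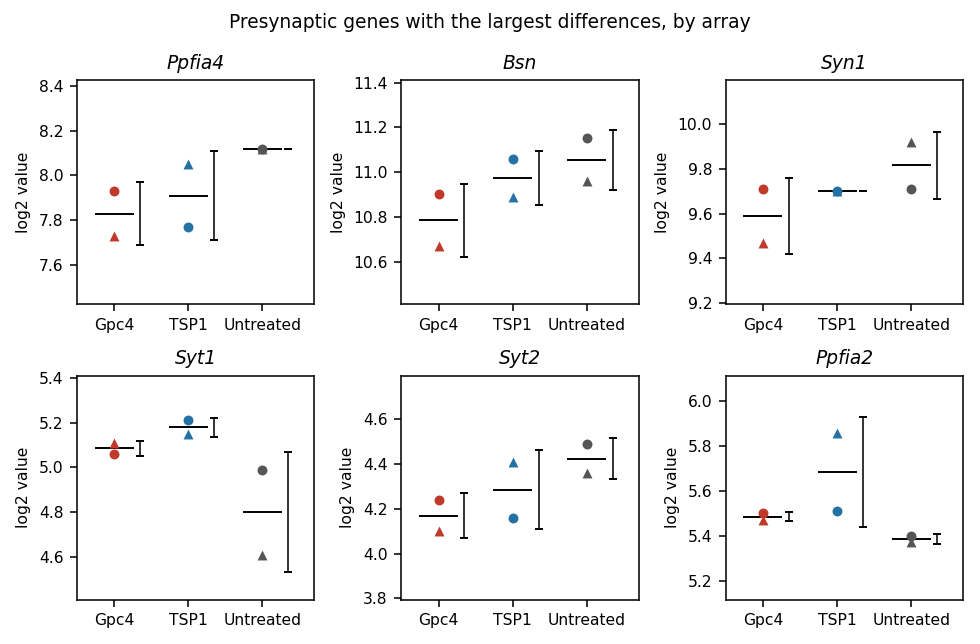
Log2 value on each array for the 6 genes with the largest differences from untreated cultures (Gpc4 red, TSP1 blue, untreated grey). Circles are replicate 1, triangles replicate 2, lines the means and bars the SDs (n = 2), and each axis spans 1 log2 unit. Bsn, Syt1 and Ppfia2 each keep 1 order of groups in both cultures, and Syt1 has its untreated arrays 0.38 apart. The 6 were picked by size and such orders were not counted over all probe sets, so nothing is read from them.

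Presynaptic neurexins bind postsynaptic partners across the cleft, and CASK is a scaffold that binds their intracellular tail. Cask had 8.92 and 8.97 with Gpc4, 8.87 and 9.03 with TSP1, and 8.75 and 8.88 in untreated cultures. Both Gpc4 arrays lay above both untreated ones, by 0.13 on average (95% interval -0.10 to 0.36, adjusted p = 0.84 from limma), and with TSP1 the groups overlapped (0.14). The other, dim probe set of Cask gave -0.095 with Gpc4 and 0.08 with TSP1. Nrxn2 had 10.65 and 10.51 with Gpc4 and 10.64 and 10.71 in untreated cultures (-0.10), and Nrxn3 had 10.74 and 10.55 with Gpc4 and 10.86 and 10.73 in untreated cultures (-0.15). With TSP1 they differed by -0.12 and -0.05.

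For endocytosis, amphiphysin (Amph) recruits dynamin 1 (Dnm1), the GTPase that cuts the vesicle neck, and AP180 (Snap91) assembles the clathrin coat. Amph had 7.10 and 7.40 with Gpc4, 7.18 and 7.52 with TSP1, and 7.17 and 7.14 in untreated cultures. The difference of 0.20 with TSP1 (95% interval -0.14 to 0.53, adjusted p = 0.98 from limma) lay almost wholly in the second culture (0.01 in one and 0.38 in the other). Dnm1 read 11.37 and 11.30 with Gpc4, 11.33 and 11.45 with TSP1, and 11.42 and 11.44 in untreated cultures, and differed by -0.10 with Gpc4. Snap91 read between 12.55 and 12.71 on all arrays and differed by 0.06 with each protein.

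Set directly against each other, Gpc4 and TSP1 cultures gave log2 differences (Gpc4 minus TSP1) from -0.20 to 0.22 over the 37 genes, with a median of -0.04 (all probe sets: -0.005), 11 above 0, 25 below and 1 at 0. Over all 31042 probe sets 14884 lay above 0 and 15554 below. All 37 intervals of the genes lay within 1.5-fold. The highest were Syn3 (0.22, 95% interval -0.10 to 0.54), Vamp1 (0.13, -0.08 to 0.34) and Rims1 (0.09, -0.13 to 0.31). The lowest were Ppfia2 (-0.20, -0.48 to 0.08), Bsn (-0.19, -0.47 to 0.09) and Cplx2 (-0.17, -0.41 to 0.07), each of the 6 with an adjusted p of 0.995 from limma. Of these, Syn3 and Ppfia2 lie under the array medians, as does Rims1. No gene was shown to respond differently to the proteins.

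The order of the arrays was counted over the 37 genes. Both Gpc4 arrays lay above both untreated arrays for 4 genes (Syt1, Snap25, Ppfia2 and Cask, 10.8%, against 16.0% of all probe sets) and below them for 9 (24.3%, against 18.9%): Syt2, Vamp2, Stx1a, Bsn, Pclo, Sv2a, Cplx1, Ppfia4 and Dnm1. Both TSP1 arrays lay above for 6 genes (16.2%, against 14.3% of all probe sets) and below for 7 (18.9%, against 15.6%). Gpc4 and TSP1 were set against the same 2 untreated arrays, so a gene high or low on those moves both differences. Within cultures, 5 genes were higher with Gpc4 in both and 13 lower in both, 17 had opposite signs and 2 had a difference of 0 in one culture. With TSP1 10 were higher in both, 13 lower in both, 13 opposite and 1 had a 0. The same within-culture counts were not made over all probe sets, so nothing is read from them. A difference of at least 0.20 in size was found for 6 of 37 genes with Gpc4 (16.2%, all probe sets 15.2%) and for 3 of 37 with TSP1 (8.11%, all probe sets 12.2%).

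**Figure D4:**
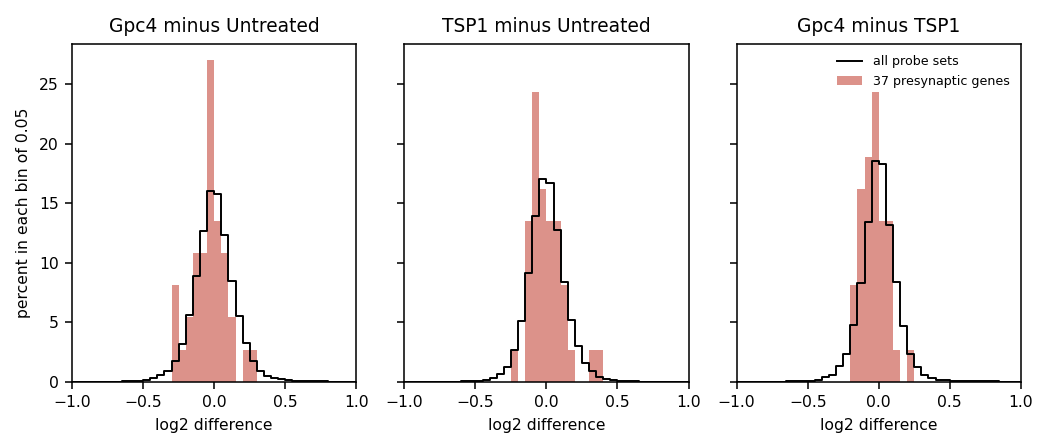
Percent of the 37 genes (red bars) and of all probe sets (black line) in each bin of 0.05 of the log2 difference, for Gpc4 and TSP1 against untreated cultures and Gpc4 against TSP1, drawn from -1 to 1. The bars lie within the spread of the black line, with medians of -0.025, -0.03 and -0.04 for the genes in the 3 panels and -0.005 for all probe sets in each.

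Arrays of one condition differed by a median of 0.10 with Gpc4, 0.11 with TSP1 and 0.07 in untreated cultures over the 37 genes (all probe sets: 0.10, 0.11 and 0.11), and by 0.42 at most (Rph3a, untreated). The residual SD had a median of 0.09 over the genes and 0.10 over all probe sets. Set against replicate 1 over all 3 groups, replicate 2 gave 0 of 37 genes past the threshold, where 174 probe sets passed (0.561%), and 4 of 37 at an unadjusted p under 0.05 (10.8%, all probe sets 11.3%). These were Unc13b (-0.25), Bsn (-0.20), Syn2 (0.19) and Nrxn3 (-0.17), with adjusted p from 0.28 to 0.42 from limma. All 3 replicate-2 arrays lay above all replicate-1 arrays for 2 genes (5.41%, all probe sets 6.26%), Syn2 and Nsf. They lay below them for 4 (10.8%, all probe sets 7.87%): Unc13b, Sv2b, Ppfia3 and Nrxn3. Amph (0.20) and Syn3 (0.17) were the other genes furthest up in replicate 2, and Rph3a (-0.17) was next to Unc13b and Bsn at the lower end. Markers of other cells also differed between the replicates, and 5 of 61 passed by limma. Higher in replicate 2 were the fibroblast genes Lum (1.79, adjusted p = 0.0031) and Dcn (1.54, 0.010), the intermediate filament gene Vim (0.80, 0.0047) and Gad1, an enzyme of GABA synthesis (0.61, 0.016), and lower was the microglial Tyrobp (-0.95, 0.015). Of the other amacrine markers, Tfap2b (-0.39), Tfap2a (-0.29), Slc6a9 (-0.19) and Chat (-0.06) read lower in replicate 2. Slc32a1 (0.07), Gad2 (0.06) and Calb2 (0.03) read higher. Of the other fibroblast markers, Col3a1 (1.04), Col1a1 (0.49) and Col1a2 (0.45) read higher, and Pdgfrb (-0.10), Acta2 (-0.05) and Rgs5 (-0.01) lower. The other microglial markers lay between -0.61 (Csf1r) and 0.04 (P2ry12). In all 3 groups the summed fibroblast and glial markers were higher, and the summed microglial markers lower, on the replicate-2 array. The glial sum weights Vim most, the brightest of that list, and its markers did not run together. Slc1a3 (-0.31), Pax2 (-0.28), S100b (-0.13), Aqp4 (-0.12) and Aldh1l1 (-0.11) read lower in replicate 2. Rlbp1 (0.16), Gfap (0.15) and Glul (0.08) read higher, as did Vim. The part of these cells in the differences of the 37 genes between replicates was not tested.

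Of the 37 genes, 19 had more than 1 probe set, with 23 further probe sets in all, none of which passed in any comparison, with or without the replicate block. Of the 12 further ones with a mean of at least 6, 6 did not share the sign of the chosen probe set with Gpc4: 1 each of Vamp1 (-0.04), Cplx1 (0.03), Rab3a (0.07) and Syn2 (0.19), and both of Nsf (0.16 and 0.07), whose chosen probe set stood at 0. With TSP1 4 did not: 1 of Syn2 (-0.06), that of Cplx1 (0.03) and both of Nsf (0.01 and 0.11). For Syn1, Stx1a and Ppfia4 the probe sets kept 1 sign, negative, with both proteins. Vamp1 had another, dim probe set that gave 0.32 with Gpc4 and 0.35 with TSP1.

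**Figure D5:**
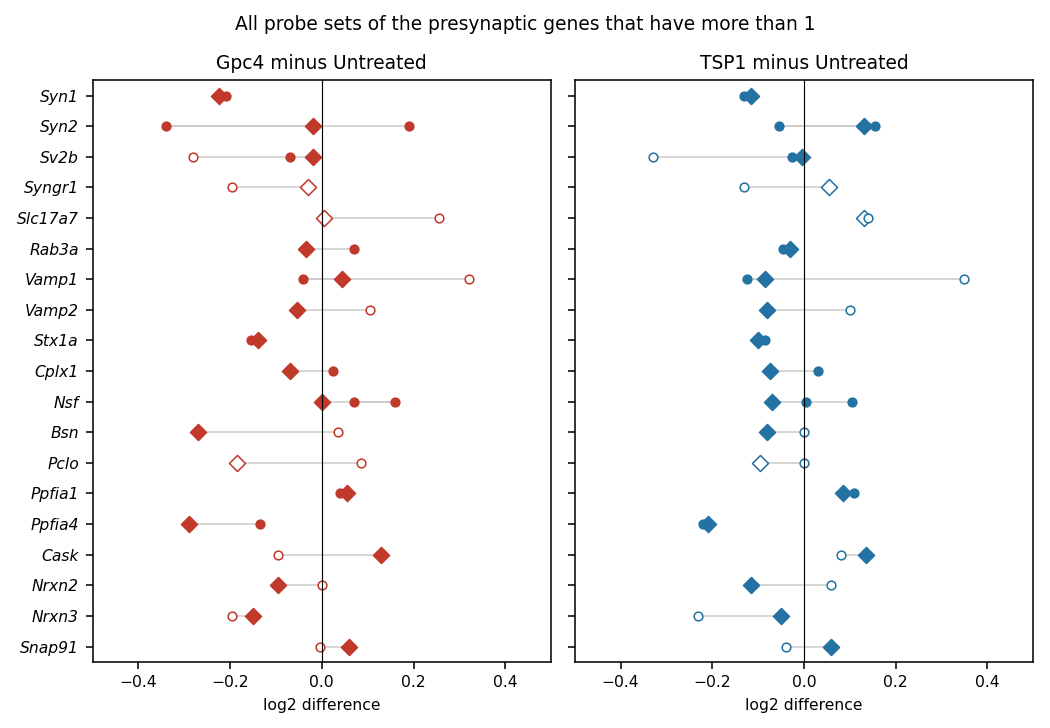
Log2 difference of every probe set of the 19 genes that have more than 1, with Gpc4 (left) and TSP1 (right) against untreated cultures. Diamonds are the chosen probe sets, circles the others, and open symbols have a mean log2 value under 6. The 3 Syn2 probe sets span -0.34 to 0.19 with Gpc4, while those of Syn1, Stx1a and Ppfia4 stay below 0 in both panels.

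A further list held 89 presynaptic genes, of which 79 had a probe set. With Gpc4 none was higher or lower past the threshold by limma (4 at an unadjusted p under 0.05, 5.06%, all probe sets 6.88%), with a median of -0.03 and a range from -0.36 to 0.28. With TSP1 none passed either (5 at an unadjusted p under 0.05, 6.33%, all probe sets 4.40%), with a median of -0.005 and a range from -0.26 to 0.31. The lowest with Gpc4 were Lin7a, a scaffold that joins CASK (7.63 and 7.70 with Gpc4, 7.97 and 8.12 with TSP1, and 8.02 and 8.03 in untreated cultures), Doc2b, a calcium sensor for release (-0.29), and Bin1, a relative of amphiphysin (-0.29). Lin7a differed by -0.36 from untreated cultures and by -0.38 from TSP1, both Gpc4 arrays lying below all other arrays, and it did not pass (adjusted p = 0.50 and 0.63 by limma, 0.29 and 0.30 in the blocked fit). The highest with Gpc4 were Syt6 (0.28) and Unc13d (0.21), both under the array medians, and Rab5a, a GTPase of early endosomes (0.27, adjusted p = 0.74 from limma).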

How the data were processed

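The authors hybridised RNA to Affymetrix Rat Genome arrays and used Affymetrix Expression Console (the sources used here do not give its version) to make the deposited log2 RMA values (background corrected, normalized between arrays and summarised per probe set), rounded to 2 decimals. The log2 of the paper's linear values lies within 0.005 of them over the 1999 probe sets compared, a check of scale only.

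All 6 arrays were fitted with lmFit and eBayes (limma 3.58.1, R 4.3.3, 1 mean per group, 3 residual degrees of freedom, no filter or pseudocount). P-values were two-sided and Benjamini-Hochberg adjusted over all 31042 probe sets at 0.05. Intervals use the moderated t of the same fit and were not adjusted over genes. The number of arrays limits the precision. Replicate 2 was set against replicate 1 with condition in the model. The fit was tested on simulated data.

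Replicate numbers were taken as pairing arrays of a culture. The methods state 2 cultures, and arrays that share a number deviated together, with correlations of 0.29, 0.35 and 0.37 across probe sets (0.04, 0.28 and 0.32 across the 37 genes). The replicate block was an alternative fit.

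The genes and lists were chosen with earlier results of these data known. Full values are given for the 4 genes furthest in each direction against untreated cultures and the 3 furthest in the other comparisons, and others are given by role. Syp, Sv2a, Slc17a6, Snap25, Stx1a, Pclo, Nrxn2, Nrxn3 and Dnm1 were added as examples after their values were seen. The platform annotation gave 1 symbol to 20826 probe sets, several to 436 and none to 9780, and all 37 genes match the RefSeq table of GRCr8 by symbol. The array values carry no coordinates. Alternatives were the block, a mean over a gene's probe sets, leaving out each array, a fit of only the compared arrays, filters on dim probe sets, centring, quantile normalization, a trended prior for the variance and the methods' t-test. Matplotlib 3.10.9 (Python 3.11.15) drew the figures. Protein, immunostaining and mouse experiments were not analysed here.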

Additional observations from a re-analysis of the deposited data

How the results depend on the processing

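In each comparison the count of 0 among the 37 genes held under every alternative that tested them with 2 arrays in each group, with 1 exception. The methods' t-test without adjustment gave 3 with Gpc4 (8.11%, all probe sets 5.49%), 0 with TSP1 (all probe sets 4.12%) and 1 for Gpc4 against TSP1 (2.7%, all probe sets 4.62%). The mean over a gene's probe sets gave differences only and was not tested. The 28 differences of the genes named by rule kept their sign in all 363 values that the alternatives gave for them. With the block, a trended variance, a filter or only the compared arrays, the group means stay the same, so the sign could not change. The 28 were also picked as the furthest from 0, so nothing is read from this count. None of the 28 passed in the limma fits with 2 arrays in each group. For the values below, the cause was not tested. Probe sets changed by Gpc4, 26, were 64 with the replicate block, 90 with the block and a filter at a mean of 6, 13 in a fit of the Gpc4 and untreated arrays alone, 49 with a trended variance, and 1704 and 0 by the methods' t-test before and after Benjamini-Hochberg. Those changed by TSP1, 0, were 4, 8 and 1280 with the block, the block and filter, and the unadjusted t-test. Those between Gpc4 and TSP1, 19, were 31 with either filter on dim probe sets, 80 and 100 with the block without and with the filter, 39 with a trended variance, and 1433 and 0 by the t-test before and after adjustment. Those between replicates, 174, were 264 with a trended variance.

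Leaving out 1 array at a time gave 2 to 13 probe sets with Gpc4 (13 without either TSP1 array, 8 without Untreated replicate 1, 6 without Untreated replicate 2, 4 without Gpc4 replicate 1, 2 without Gpc4 replicate 2), 0 to 1 with TSP1 (1 without Untreated replicate 1), 2 to 13 between Gpc4 and TSP1 (2 without any one Gpc4 or TSP1 array, 13 without either untreated array) and 0 to 0 between replicates. The median over the genes with TSP1, -0.03, was -0.02 with median centring, -0.015 with a mean over probe sets, and -0.045 to 0 with an array left out (0 without TSP1 replicate 2, -0.01 without TSP1 replicate 1, -0.015 without Untreated replicate 1). Under the array medians, signal over background limits what could be seen.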
